A study of Rattus norvegicus with 5 samples.

Results

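The natriuretic peptide genes Nppa (ENSRNOG00000008176) and Nppb (ENSRNOG00000008141) were followed in 5 single-cell RNA libraries of cultured rat heart cells. They are 2 of the 15074 gene columns that the 5 deposited tables have in common, and were taken by identifier. Cells were wild type primary ventricular cells of Sprague dawley rats at age P2, myocytes and non-myocytes together, so a culture is a mixture from neonatal hearts. The groups were an adenovirus with GFP (Adeno-GFP) at day 3, Adeno-TBX18 at day 3, Adeno-GFP at day 14, Adeno-TBX18 at day 14, and Adeno-TBX18 with A83-01, an inhibitor of TGF-beta receptors, at 0.2 µM. The last group is at day 14 by its title and description, while its treatment label gives 3 days, so the length of exposure to A83-01 is not settled. Each group has 1 library, so no difference below was tested and no p-value is given. Intervals are exact, at 95%, and cover counting error only.

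Nppa encodes the precursor of atrial natriuretic peptide and Nppb that of brain natriuretic peptide. Both hormones are cut from secreted or stored precursors and act through a receptor that makes cyclic GMP, which promotes salt excretion and relaxes vessels. Ventricular myocytes express Nppa before birth and lower it afterwards, and stretch or stress of the ventricle raises both genes. TBX18 is a T-box transcription factor of the embryonic sinus horn, and the title of the series concerns its use to turn ventricular myocytes into pacemaker cells.

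In the rat genome both genes lie side by side on chromosome 5, with 0 annotated genes between them in the GRCr8 assembly. The sequences upstream of their starts are shown because both genes are classical targets of cardiac transcription factors and were compared here under a T-box factor. Both are from RefSeq, build GRCr8, plus strand, and end at the last base before the annotated gene (chr5:163711934-163712183 for Nppa and chr5:163699758-163699954 for Nppb). The window of Nppb is the shorter because the annotated gene starts before the end of the RefSeq window. Capitals mark matches to any of 4 motifs, searched on both strands. These are a half-site of T-box factors, the sites of GATA factors, the Nkx element of cardiac homeobox factors and the M-CAT element of TEAD factors.
Nppa: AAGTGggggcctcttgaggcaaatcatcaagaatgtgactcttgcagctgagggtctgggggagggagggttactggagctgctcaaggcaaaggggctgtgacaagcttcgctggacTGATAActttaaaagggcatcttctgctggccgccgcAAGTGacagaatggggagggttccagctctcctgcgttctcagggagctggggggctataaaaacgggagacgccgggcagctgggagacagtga
Nppb: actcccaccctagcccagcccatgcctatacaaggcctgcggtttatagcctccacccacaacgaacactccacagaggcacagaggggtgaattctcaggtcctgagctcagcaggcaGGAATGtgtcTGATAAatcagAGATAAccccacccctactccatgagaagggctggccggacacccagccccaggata

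The 250 bases of Nppa held 1 GATA match (AGATAA or TGATAA), which began 132 bases before the gene, and 2 matches to the Nkx element AAGTG, which began 250 and 95 bases before it. The 197 bases of Nppb held 2 GATA matches, which began 68 and 57 bases before the gene, and 1 match to the M-CAT element GGAATG, which began 78 bases before it. The T-box letters GGTGTGA had 0 matches in both windows, GGAATG had 0 in that of Nppa and AAGTG had 0 in that of Nppb. Over 33469 promoters, windows of 250 bases held a match to the GATA letters in 16.9% and to AAGTG in 40.6%. They held a match to GGAATG in 12.1% and to GGTGTGA in 3.22%. Windows of 197 bases held a GATA match in 14.1%, an AAGTG match in 33.5%, a GGAATG match in 9.58% and a GGTGTGA match in 2.62%. None of these matches overlapped another, and a match is a description of the letters only.

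The tables name genes by Ensembl identifier alone, and 0 of the 15074 identifiers could be looked up, so myocytes and stromal cells could not be named from their markers. Cells were clustered without Nppa, Nppb and the virus genes, and the 32 clusters were joined by profile into 2 compartments. The compartment where EGFP was found in more of the cells of the day 3 GFP library was numbered 1. It held 4520 of 7648 cells with GFP and 3157 of 6123 with TBX18 at day 3, then 2002 of 6042, 1198 of 7895 and 2466 of 7169 cells with GFP, TBX18 and TBX18 with A83-01 at day 14. Whether compartment 1 is the myocytes was not tested. Of the clusters, 14 drew at least 90% of their cells from 1 library, and they held 68.6% of cells. Median depth was 22902.5 and 28572 UMIs per cell at day 3 for GFP and TBX18, and 15345, 15361 and 17332 at day 14, where a UMI marks 1 captured RNA molecule. Any pair of libraries shared from 7 to 20 cell barcodes.

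Nppa was abundant in compartment 1 at day 3 and lower at day 14, most of all with TBX18 alone. In compartment 1 its level was 22320.1 counts per 1000000 UMIs (CPM; 95% interval 22291 to 22349) with GFP at day 3 and 30812 CPM (30776 to 30848) with TBX18 at day 3. At day 14 it was 6294 CPM (6266 to 6322) with GFP, 2371 CPM (2350 to 2393) with TBX18 and 12051 CPM (12020 to 12082) with TBX18 and A83-01. The order was thus TBX18 at day 3, GFP at day 3, A83-01, GFP at day 14 and TBX18 at day 14, with no overlap of counting intervals between neighbours. The spread between cultures is not known. Nppa took 3.08% of compartment 1 UMIs in the highest library and 0.237% in the lowest.

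Nppb had another order in compartment 1, lowest with GFP at day 3. Its level there was 927 CPM (921 to 933) and 3958 CPM (3945 to 3971) with TBX18 at day 3. The day 14 levels were 2219 CPM (2202 to 2235) with GFP, 1573 CPM (1555 to 1590) with TBX18 and 3138 CPM (3122 to 3153) with TBX18 and A83-01. TBX18 at day 3 was therefore the highest library for both genes, while the lowest library was TBX18 at day 14 for Nppa and GFP at day 3 for Nppb.

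**Figure D1:**
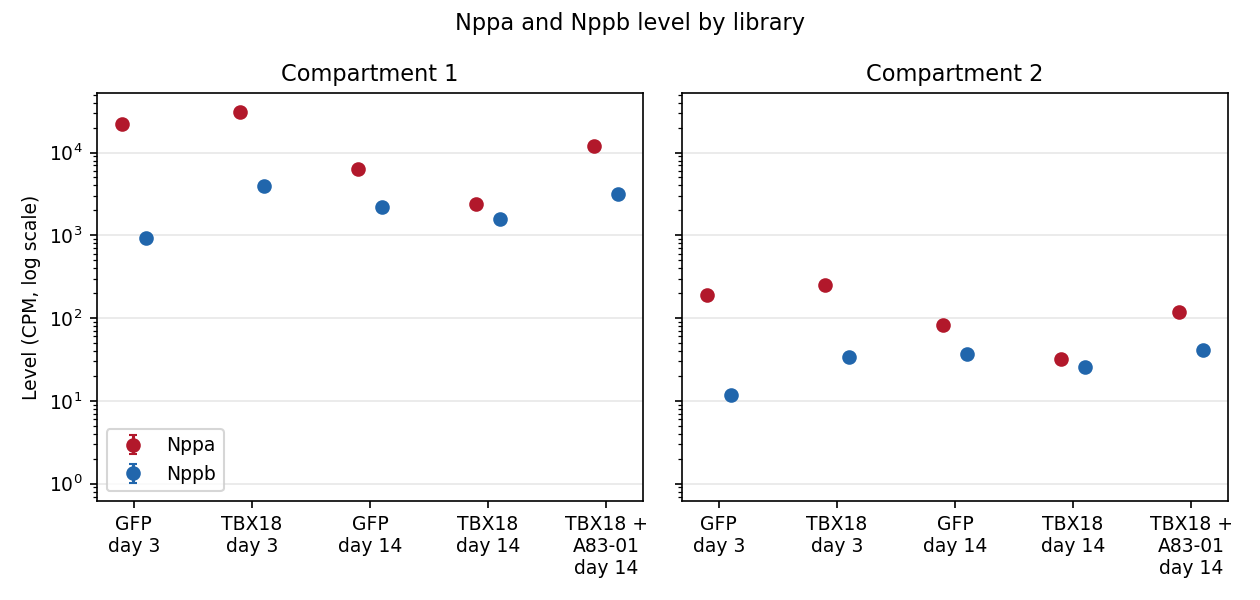
Level of Nppa and Nppb in CPM (log axis) in each of the 5 libraries, for compartment 1 (left) and compartment 2 (right). Points are sums over cells and bars, mostly smaller than the points, are exact 95% counting intervals; Nppa runs from 2371 to 30812 CPM in compartment 1 and from 32.5 to 251 CPM in compartment 2.

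TBX18 was compared with GFP at day 3, the earlier of the sampled times. In compartment 1 Nppa was 1.38-fold higher with TBX18, a log2 ratio of 0.47 (0.46 to 0.47). Nppb was 4.27-fold higher, a log2 ratio of 2.09 (2.08 to 2.11), and 36 of 4120 genes had a higher ratio. More than 2-fold was taken as the mark of a difference between libraries; 1 of the 2 peptide genes passed it, where 4.49% of genes were that much higher and 4.39% that much lower. The median cell held 22946 CPM of Nppa with TBX18 against 15930 CPM with GFP, and 2133 CPM of Nppb against 400.4 CPM. Both genes were thus higher in the sum and in the median cell, and Nppb by more than Nppa. The largest clusters, 3566 cells with GFP and 2101 with TBX18, each held under 50 cells of the other library. In the cluster of 109 cells with GFP and 74 with TBX18, Nppa was lower with TBX18, at 13346 against 28366 CPM. Nppb there was at 1432 against 1008 CPM. In the other clusters with at least 50 cells in both libraries, both genes were higher with TBX18.

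At day 14 the direction between the viruses was the opposite. In compartment 1 Nppa was lower with TBX18 than with GFP, with a log2 ratio of -1.41 (-1.42 to -1.39), and 15 of 4899 genes had a lower one. Nppb had a log2 ratio of -0.50 (-0.52 to -0.48), short of 2-fold. Of the 2 genes 1 was past the mark, where 0.959% of genes were more than 2-fold lower and 2.92% more than 2-fold higher. The median cells lay further apart than the sums, at 73.1 CPM of Nppa with TBX18 against 3065 CPM with GFP, and at 382 CPM of Nppb against 1747 CPM. Clusters with at least 50 cells in both libraries did not all share this direction. In the cluster of 246 cells with GFP and 90 with TBX18, Nppb was higher with TBX18, at 1911 against 1190 CPM. Nppa there was at 3204 against 3721 CPM. In the other such clusters both genes were lower with TBX18. These clusters leave out 1297 of the 2002 cells with GFP, which were in a cluster with under 50 cells of TBX18.

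The day 14 library with A83-01 was set against TBX18 alone, a comparison that adds block of TGF-beta receptors. Nppa was 5.08-fold higher with A83-01 in compartment 1, with a log2 ratio of 2.35 (2.33 to 2.36). By this ratio it stood first, with 0 of 4652 genes above it. Nppb had a log2 ratio of 1.00 (0.98 to 1.01), at the 2-fold mark and just short of it, and 30 genes had a higher ratio. In this comparison 0.623% of genes were more than 2-fold higher and 8.79% more than 2-fold lower, and the median gene had a log2 ratio of -0.37. Under median-of-ratios scaling, which sets that median to 0, the log2 ratios were 2.72 for Nppa and 1.37 for Nppb. With A83-01 the median cell held 8374 CPM of Nppa and 2726 CPM of Nppb, against 73.1 and 382 CPM with TBX18 alone. The 2 libraries mostly lay in different clusters. With A83-01, 1975 of the 2466 cells were in a cluster with under 50 cells of TBX18 alone. With TBX18 alone, 1001 of the 1198 cells were in a cluster with 51 cells of A83-01. There Nppa was at 4297 CPM with A83-01 against 2315 CPM, and Nppb at 1772 against 1506 CPM. In the cluster of 95 and 79 cells, Nppa was at 13906 against 1707 CPM and Nppb at 3660 against 1412 CPM. The comparisons with GFP and with A83-01 at day 14 share the TBX18 library, so a low value in that library enters both.

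Culture time separated the genes. With GFP, Nppa in compartment 1 was lower at day 14 than at day 3 by a log2 ratio of -1.83 (-1.83 to -1.82), while Nppb was higher by 1.26 (1.25 to 1.27). Both were past 2-fold, in opposite directions, where 11.9% of 4473 genes were that much higher and 7.06% that much lower. With TBX18 both were lower at day 14, Nppa by a log2 ratio of -3.70 (-3.71 to -3.69) and Nppb by -1.33 (-1.35 to -1.31). Of 4626 genes, 8 had a lower ratio than Nppa, and 2.72% were more than 2-fold lower and 17.1% more than 2-fold higher. Day 14 tables differ from day 3 tables in unit, gene list and the range of genes per cell, which cannot be told apart from time.

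**Figure D2:**
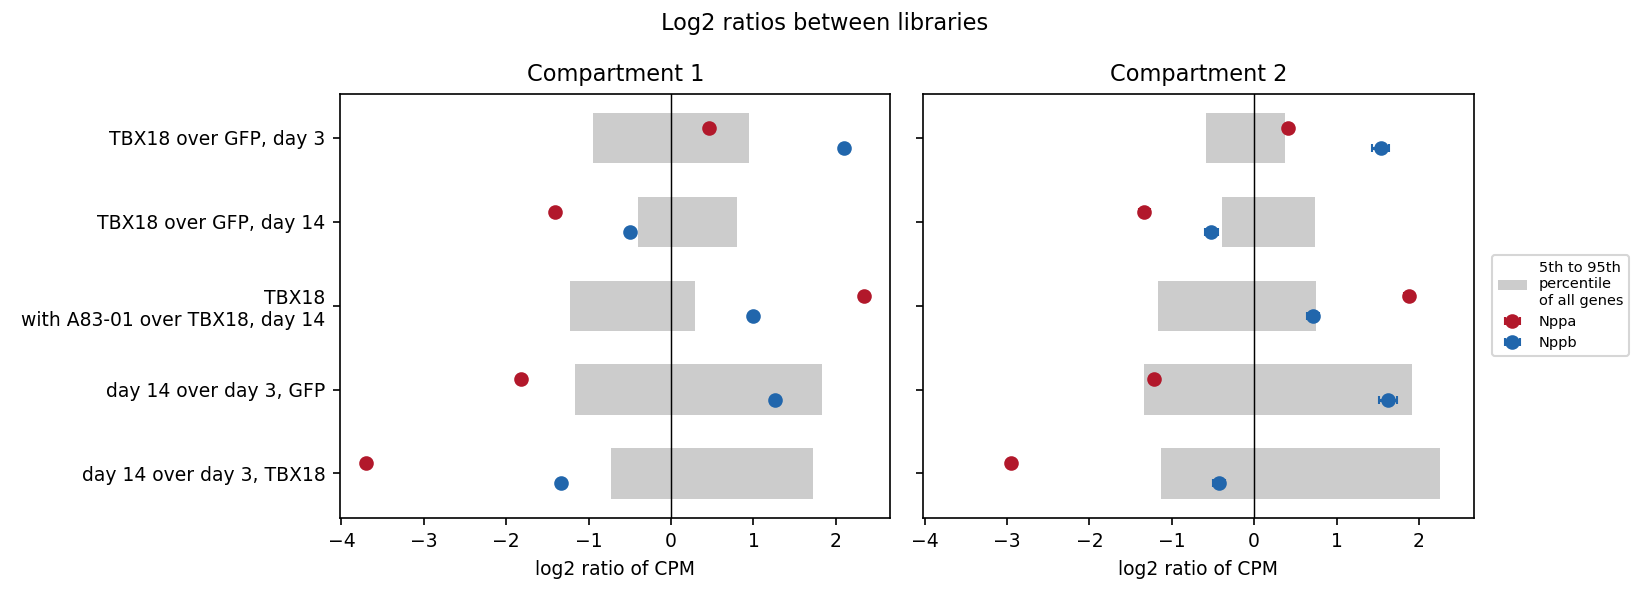
Log2 ratio of CPM for Nppa (red) and Nppb (blue) in 5 comparisons between libraries, in compartment 1 (left) and compartment 2 (right), with exact 95% counting intervals. Grey bars run from the 5th to the 95th percentile of all genes that averaged 20 CPM or more; Nppa lies at -3.70 in compartment 1 for day 14 over day 3 with TBX18, and at 2.35 for A83-01 over TBX18.

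The balance between the peptide genes moved with these comparisons. For each 100 Nppa UMIs in compartment 1 there were 4.15 Nppb UMIs (4.12 to 4.18) with GFP at day 3 and 12.8 (12.8 to 12.9) with TBX18 at day 3. At day 14 the number was 35.3 (34.9 to 35.6) for GFP, 66.3 (65.4 to 67.3) for TBX18 and 26.0 (25.9 to 26.2) for A83-01. The kit counts the 3' end of each RNA, so no scaling by length was made, and only the change of this number between libraries is read. It was larger with TBX18 than with GFP on both days, by a log2 difference of 1.63 (1.62 to 1.64) at day 3 and of 0.91 (0.89 to 0.94) at day 14. With A83-01 it was smaller than with TBX18 alone, by a log2 difference of -1.35 (-1.37 to -1.33).

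Single cells of compartment 1 varied over a wide range in each library. With GFP at day 3 the 5th percentile of Nppa was 291 CPM and the 95th was 62631 CPM. With TBX18 at day 3 these were 643 and 76299.8 CPM, with GFP at day 14 they were 0 and 22867 CPM, and with A83-01 they were 50.8 and 38096 CPM. The TBX18 library at day 14 was the most uneven, with a lower quartile of 0, a median of 73.1 CPM, an upper quartile of 570.0 CPM and a 95th percentile of 12362 CPM. There the 10% of cells with the most Nppa held 82.1% of its Nppa UMIs, against 41.4% with GFP at day 14 and 33.2% with A83-01. At day 3 those 10% held 30.5% with GFP and 27.9% with TBX18. A minority of cells therefore carried the Nppa of compartment 1 in the TBX18 library at day 14.

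Nppb was spread differently. The 10% of cells with the most Nppb held 46.0% of its UMIs with GFP and 39.3% with TBX18 at day 3, and 29.1%, 49.0% and 26.7% with GFP, TBX18 and A83-01 at day 14. Its median cell was at 400.4, 2133, 1747, 382 and 2726 CPM in the same order of libraries. Nppb was thus most even among cells with A83-01 and least even with TBX18 at day 14.

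**Figure D3:**
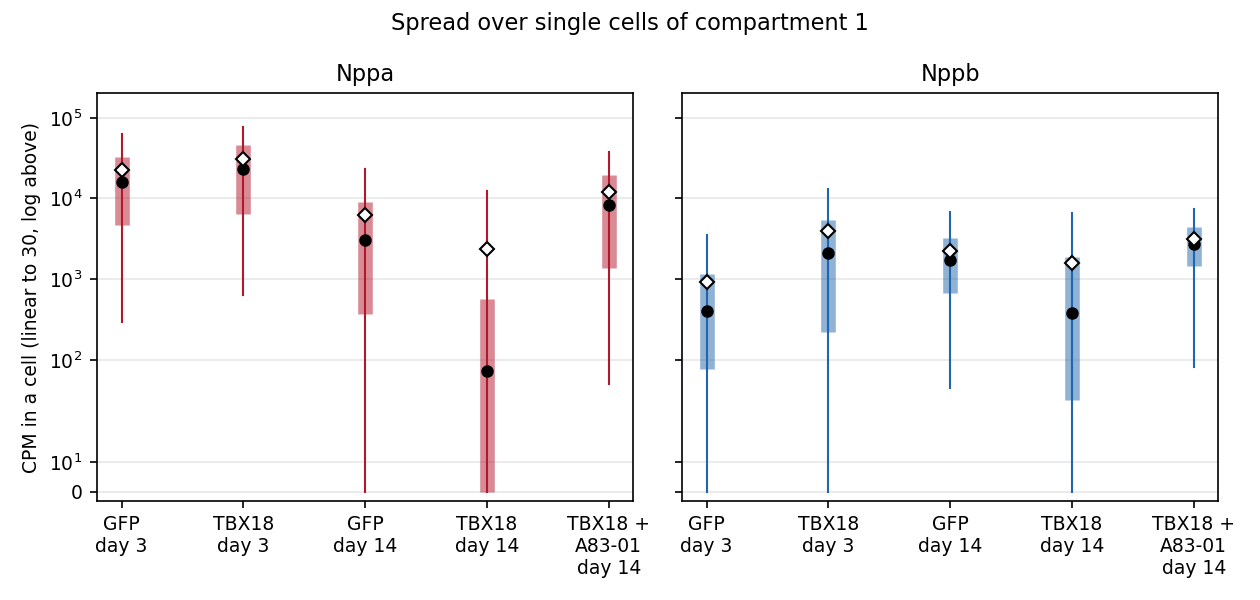
CPM of Nppa (left) and Nppb (right) in single cells of compartment 1 for each library, on an axis that is linear up to 30 and logarithmic above. Thin lines run from the 5th to the 95th percentile of cells, thick bars from the 25th to the 75th, black points are medians and white diamonds the level of the summed cells; with TBX18 at day 14 the Nppa median is 73.1 CPM and the summed level 2371 CPM.

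The share of cells with at least 1 UMI was compared after each cell was thinned to 5000 UMIs. In compartment 1 Nppa was found in 97.0% of cells (96.5 to 97.5) with GFP and in 99.2% (98.8 to 99.4) with TBX18 at day 3. At day 14 GFP gave 85.2% (83.5 to 86.7), TBX18 gave 43.7% (40.9 to 46.6) and A83-01 gave 89.2% (87.9 to 90.4). The libraries stood in the order of their Nppa levels, with TBX18 at day 14 far below the rest. Nppb was found in 69.1% (67.7 to 70.5) and 80.9% (79.5 to 82.3) at day 3, and in 90.1% (88.7 to 91.3), 62.8% (60.0 to 65.5) and 93.2% (92.2 to 94.2) at day 14. Without thinning, the Nppa shares were 99.8%, 100%, 94.4%, 61.4% and 97.2%, and those of Nppb 83.3%, 91.9%, 95.4%, 75.1% and 97.2%, with the libraries listed as in the preceding sentences. Thinning left out 128, 90, 1, 0 and 0 cells of compartment 1.

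Nppb was found more often in thinned compartment 1 cells with Nppa than in those without. At day 3 it was found in 70.0% of cells with Nppa and 41.5% of the 130 without it under GFP, and in 81.5% against 19.2% of only 26 cells under TBX18. At day 14 these shares were 93.7% against 69.0% for GFP, 78.6% against 50.4% for TBX18 and 96.0% against 70.7% for A83-01. With TBX18 at day 14, 34.4% of thinned compartment 1 cells had both, 9.35% only Nppa, 28.4% only Nppb and 27.9% neither. With A83-01 85.6% had both and 3.16% neither, and with GFP at day 14 79.8% had both and 4.60% neither. Among 3379 genes with at least 20 CPM in compartment 1 of each library, Nppb was the gene whose values over cells were most like those of Nppa, and Nppa the one most like Nppb. Likeness was Pearson's r over cells of log2 of counts per 10000 UMIs plus 1, averaged over the 5 libraries, and was 0.61 for this pair. By library it was 0.38 with GFP and 0.70 with TBX18 at day 3, and 0.63, 0.61 and 0.69 with GFP, TBX18 and A83-01 at day 14. The first place of Nppa for Nppb holds for the mean. In the TBX18 library at day 3, Nppb had a higher r with other genes, among them ENSRNOG00000018598 at 0.82 and ENSRNOG00000014327 at 0.77. The next gene for Nppa was ENSRNOG00000014327 at a mean r of 0.39, and for Nppb ENSRNOG00000018598 at 0.55, and the files do not pair these with names. The median over genes was -0.01 for Nppa and -0.02 for Nppb. Cells of a library share depth and preparation, so these r describe the libraries only.

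Cells of compartment 1 were then compared within a library by UMIs of their own virus, EGFP with GFP and hTBX18 plus the reporter ZsGFP with TBX18, none of which entered the clustering. In the TBX18 library at day 3 both peptide genes were lower the more hTBX18 and ZsGFP UMIs a cell held, although the library as a whole was above the GFP library. Nppb was at 5319 CPM (5299 to 5340) in the 1744 cells with 0 virus UMIs, 3811 CPM in the 599 cells with 1, 2235 CPM in the 444 cells with 2 to 4, 723 CPM in the 181 cells with 5 to 9 and 265 CPM (251 to 279) in the 189 cells with 10 or more. The last value was 20.1-fold under the first, a log2 ratio of -4.33 (-4.40 to -4.25). Nppa was at 36177, 30657, 25392, 17072 and 12325 CPM in the same cells, and its last value had a log2 ratio of -1.55 (-1.57 to -1.54) to the first. Median depth of these cells lay between 28378 and 33665 UMIs. The cells with 10 or more virus UMIs thus stood below the GFP library's 927 CPM of Nppb and 22320.1 CPM of Nppa, and the cells with 0 stood above both.

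The GFP library at day 3, binned in the same way by EGFP, gave smaller differences. Nppa was at 21486 CPM in the 2080 cells with 0 EGFP UMIs and at 22898 CPM in the 205 cells with 10 or more, a log2 ratio of 0.09 (0.08 to 0.10). Nppb was at 1004 and 732 CPM, a log2 ratio of -0.46 (-0.50 to -0.41). At day 14 with GFP, Nppa was at 6818, 5517, 5840.4, 4955 and 7045 CPM in the 1080, 264, 373, 165 and 120 cells with 0, 1, 2 to 4, 5 to 9 and 10 or more EGFP UMIs. Nppb was at 2322, 2084, 2235, 1927 and 2057 CPM in the same cells. Against the cells with 0, Nppa thus had log2 ratios of -0.31, -0.22 and -0.46 in the cells with 1, 2 to 4 and 5 to 9, and of 0.05 (0.02 to 0.07) in those with 10 or more, with no steady order. Nppb had a log2 ratio of -0.18 (-0.22 to -0.13) in the last. The last Nppa ratio was -0.09 without the 1% of cells highest in it, and its median cell was at 1848 CPM with 10 or more EGFP UMIs against 3298 CPM with 0.

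Few cells held many TBX18 virus UMIs at day 14. With TBX18 alone Nppa was at 2715 CPM in the 1008 cells with 0, 1114 CPM in the 118 cells with 1, 346 CPM in the 59 cells with 2 to 4 and 109 CPM (73.3 to 155) in the 12 cells with 5 to 9. Nppb was at 1682, 1375, 742 and 68.8 CPM (41.4 to 107) in the same cells. With A83-01 Nppa was at 12851, 8454, 6570.1 and 2323 CPM in 2131, 213, 100 and 17 cells, and Nppb at 3260, 2790, 2112 and 879 CPM. By these summed levels, each step held less of both genes in these 2 libraries, as at day 3. The median cell departed from this for Nppa with TBX18 alone. It was at 30.8 CPM with 2 to 4 virus UMIs and at 50.1 CPM in the 12 cells with 5 to 9. The 1008 cells with 0 virus UMIs of the TBX18 library also stood under the GFP library's 6294 CPM of Nppa. A cell with 0 virus UMIs can still carry the virus.

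**Figure D4:**
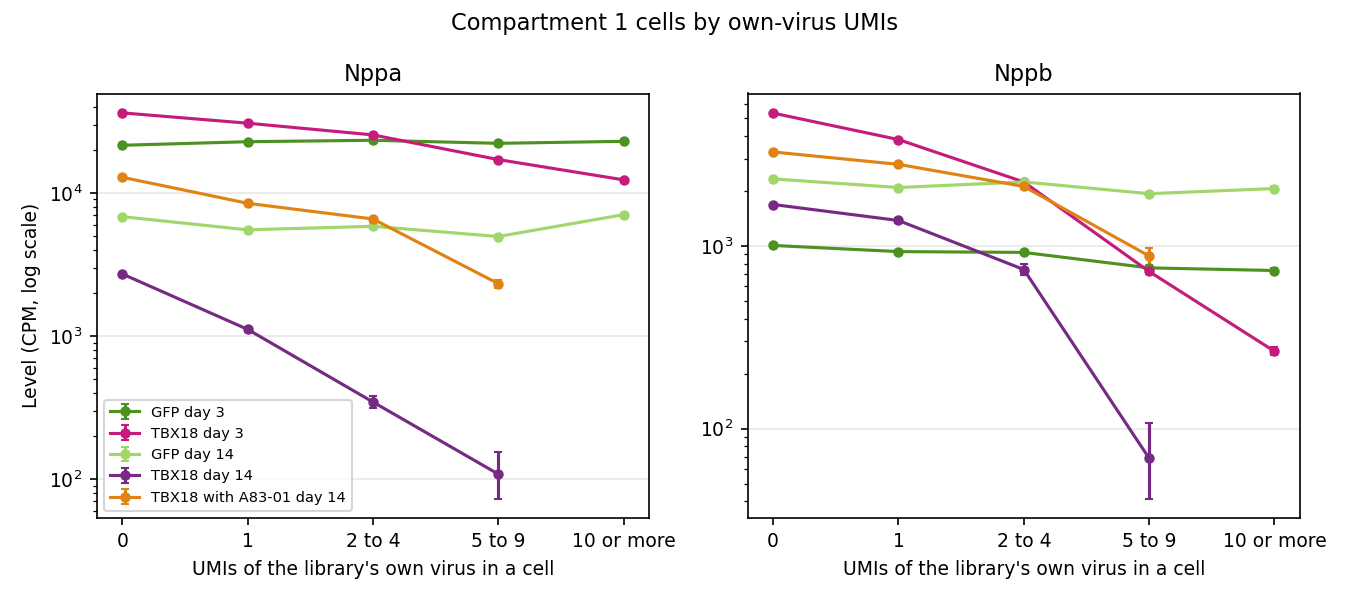
Level of Nppa (left) and Nppb (right) in CPM (log axis) in compartment 1 cells grouped by the number of UMIs of their own virus, EGFP in GFP libraries and hTBX18 plus ZsGFP in TBX18 libraries; groups under 10 cells are not shown. Bars are exact 95% counting intervals; in the TBX18 library at day 3 Nppb goes from 5319 to 265 CPM, and in the GFP library at day 3 from 1004 to 732 CPM.

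With depth matched, cells with any virus UMI were set against cells with none. In the TBX18 library at day 3, over 1278 cells a side, the log2 ratio was -0.63 (-0.64 to -0.63) for Nppa and -1.20 (-1.21 to -1.19) for Nppb, with 0.445% of 4047 genes more than 2-fold lower. At day 14 it was -1.60 (-1.66 to -1.53) and -0.60 (-0.66 to -0.54) with TBX18 over 190 cells a side, with 0.313% of genes more than 2-fold lower. With A83-01 it was -0.71 (-0.73 to -0.70) and -0.41 (-0.44 to -0.38) over 335 cells a side, with 0.141% of genes more than 2-fold lower. Nppb was past 2-fold at day 3 and Nppa at day 14 with TBX18 alone, so the gene with the larger difference was not the same at both days. In the GFP libraries the log2 ratios were 0.0007 (-0.004 to 0.005) and -0.14 (-0.17 to -0.12) at day 3, and -0.15 (-0.16 to -0.14) and -0.01 (-0.04 to 0.01) at day 14, with 0% and 0.0645% of genes more than 2-fold lower.

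Clusters, which were formed without these genes, divided the levels further. In the TBX18 library at day 3 Nppb ranged from 107 CPM in a cluster of 423 cells to 7156 CPM in one of 344 cells, 66.6-fold, and Nppa from 9883 to 39557 CPM in the same clusters. Virus UMIs were found in 86.8% of cells of the first, at 441 CPM, and in 24.1% of the second, at 13.9 CPM. Between them, clusters of 74, 130 and 2101 cells held 54.3, 41.7 and 34.6 CPM of virus and 1432, 1680 and 4243 CPM of Nppb. The cluster of 66 cells departed from this order, with 32.6 CPM of virus and 1129 CPM of Nppb. The share of cells with virus UMIs, 8.11%, 20%, 42.6% and 51.5% in these clusters, did not follow Nppb. Their median depth was 4513, 9303, 30264 and 38020 UMIs in the same order, and the part of this difference was not tested. In the GFP library at day 3 the lowest levels, 5906 CPM of Nppa and 295 CPM of Nppb, were in a cluster of 69 cells that also had the most EGFP, 250.1 CPM. Its highest Nppa level, 28366 CPM, was in a cluster of 109 cells with a median of only 3262 UMIs. For Nppb that cluster, at 1008 CPM (916 to 1107), could not be told apart from the largest cluster of 3566 cells at 999 CPM (992 to 1006). At day 14 the clusters of compartment 1 differed by 1.35-fold to 3.24-fold between their lowest and highest level. Depth itself went with the level in some libraries, but not in the same direction in each. In the TBX18 library at day 14 Nppa was at 1198, 2745 and 2647 CPM in the shallowest, middle and deepest of 3 equal groups of cells. In the GFP library at day 14 Nppb was at 2559, 2438 and 1897 CPM in such groups. With A83-01 Nppa was at 12405, 13463 and 10802 CPM. The part of depth in the result was not tested.

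In compartment 2 both genes were near 1% of their level in compartment 1. Nppa was at 189 CPM (186 to 193) and 251 CPM (248 to 255) with GFP and TBX18 at day 3, and at day 14 the level was 81.7 CPM (79.5 to 83.9) with GFP, 32.5 CPM (31.4 to 33.6) with TBX18 and 119 CPM (117 to 122) with A83-01. For Nppb the day 3 levels were 11.8 CPM (11.1 to 12.6) with GFP and 34.2 CPM (32.9 to 35.4) with TBX18. Its day 14 levels were 36.5 CPM (35.0 to 38.0) with GFP, 25.4 CPM (24.5 to 26.4) with TBX18 and 41.7 CPM (40.3 to 43.2) with A83-01. The libraries stood in the same order as in compartment 1 for Nppa. For Nppb the order was led by A83-01 in place of TBX18 at day 3, whose interval overlapped that of GFP at day 14.

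Compartment 1 was above compartment 2 by 73.1-fold to 123-fold for Nppa and by 60.8-fold to 116-fold for Nppb over the 5 libraries. Both genes were past 2-fold in each library, as were from 15.7% to 18.7% of all genes, that is 18.7% and 17.4% with GFP and TBX18 at day 3 and 16.8%, 16.4% and 15.7% with GFP, TBX18 and A83-01 at day 14. By this ratio Nppa ranked 15th, 25th, 33rd, 59th and 23rd and Nppb 63rd, 34th, 61st, 78th and 61st among 4350 to 5507 genes. Free RNA from broken cells can enter any droplet, so the same ratio was taken for other genes. The 50 other genes most confined to compartment 1 had compartment 2 levels with a median of 0.987%, 0.824%, 1.27%, 1.16% and 1.03% of those in compartment 1. Nppa was at 0.849%, 0.815%, 1.30%, 1.37% and 0.989%, and Nppb at 1.27%, 0.863%, 1.64%, 1.62% and 1.33%. Nppa lay within the range of those 50 genes except with TBX18 at day 14, and Nppb lay above it except with TBX18 at day 3. Those 50 genes were picked for the largest ratios, so their range is a description. The part of free RNA and of doublets in the levels of compartment 2 was not tested, and these levels are not read as expression there.

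**Figure D5:**
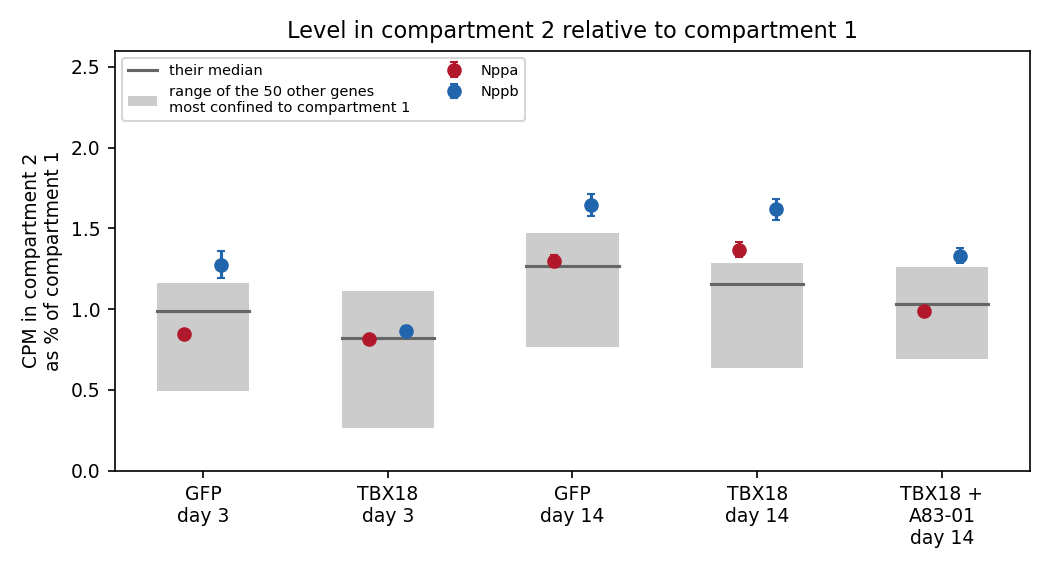
Level in compartment 2 as a percent of that in compartment 1 for Nppa (red) and Nppb (blue), with exact 95% counting intervals, in each library. Grey bars span the 50 other genes most confined to compartment 1 and the line is their median; Nppa runs from 0.815% to 1.37% and Nppb from 0.863% to 1.64%.

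Ratios in compartment 2 were computed in the same way. TBX18 over GFP at day 3 gave log2 ratios of 0.41 (0.38 to 0.44) for Nppa and 1.53 (1.43 to 1.64) for Nppb, with 0.855% of genes more than 2-fold higher and 0.832% more than 2-fold lower. The Nppa value was -0.02 (-0.05 to 0.02) when the range of genes and UMIs of the day 14 tables was applied, so its direction is not settled. At day 14 the log2 ratios were -1.33 (-1.39 to -1.27) and -0.52 (-0.60 to -0.44), with 0.401% of genes more than 2-fold lower and 2.68% more than 2-fold higher. A83-01 over TBX18 gave 1.88 (1.82 to 1.93) and 0.71 (0.64 to 0.79), with 2.49% more than 2-fold higher and 6.87% more than 2-fold lower. Day 14 over day 3 gave -1.21 (-1.26 to -1.17) and 1.63 (1.52 to 1.74) with GFP, where 10.5% of genes were more than 2-fold lower and 17.8% higher. It gave -2.95 (-3.004 to -2.90) and -0.43 (-0.50 to -0.35) with TBX18, where 6.9% of genes were more than 2-fold lower and 26.4% higher.

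Cells of compartment 2 with a UMI were frequent at day 3 at low counts per cell. After thinning, Nppa was found in 54.2% of them with GFP and 68.7% with TBX18 at day 3, and in 34.2%, 14.5% and 39.2% with GFP, TBX18 and A83-01 at day 14, at means from 0.176 to 1.29 UMIs per cell. Nppb was found in 4.19%, 15.7%, 16.3%, 11.7% and 17.6%, at means from 0.0474 to 0.208 UMIs. Unthinned, Nppa was found in 96.1%, 99.3%, 68.3%, 36.8% and 76.7%, and Nppb in 20.4%, 59.8%, 41.4%, 30.8% and 45.0%. In these cells r between the genes was from 0.03 to 0.09, against 0.36 to 0.65 in compartment 1 on the same scale of log2 of CPM plus 1. Unthinned cells held means of 0.293 to 0.989 Nppb UMIs in compartment 2, against 20.9 to 114 in compartment 1. The part of these low counts in the lower r was not tested. Some compartment 2 clusters stood apart. One was 64 cells of the TBX18 library at day 14 with 347 CPM of Nppa and 137 CPM of Nppb at a median of 9617.5 UMIs, where the other clusters of that library were at 27.3 to 38.6 CPM and 22.2 to 41.6 CPM. Of those 64 cells, 45.3% held an Nppa UMI, against 28.1% to 40.2% in the other clusters. For Nppb it was 28.1%, against 23.6% to 43.7%, so the levels are not those of every cell. Another was 162 cells of the GFP library at day 14 with 155 CPM of Nppa and 71.0 CPM of Nppb at a median of 7558.5 UMIs, where the others were at 72.9 to 80.7 CPM and 31.1 to 36.0 CPM. Both were singled out after their values were seen.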

How the data were processed

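Single-cell RNA was measured in 5 libraries of primary rat ventricular cells, 1 per group. Per the labels' protocols, libraries were made with a droplet 3' kit. Per the submitters' processing notes, Partek, STAR 2.7.8a and the build Rnor_6.0 were used; filters on cells and genes are not given in the sources used here. The authors deposited the day 3 tables as estimated counts, judging from the values, and the day 14 tables as log2 of CPM plus 1 within each cell. In a day 14 cell, the value seen most often above 0 was set to 1 UMI and the rest scaled by it, after which 99.7% of values in each library lay within 0.05 of a whole number. Fractions were rounded. As a check, the counts of 300 cells from each day 3 library were turned into log2 of CPM plus 1 and recovered in this way. Of counts above 0, 100% came back. This checks the computation and not the day 14 tables themselves. The symbols Nppa and Nppb for the 2 identifiers were assigned from outside the tables, which hold no symbols. The members and lists were chosen with earlier results of these data known.

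Barcodes with at least 500 genes were kept. Scrublet in scanpy 1.11.5 marked from 0% to 2.82% of a library, too few to have worked in 4 of 5, so the cells with the top 6% of scores were left out instead, 480, 366, 382, 442 and 449 cells. Counts were log-scaled, 2000 variable genes gave 30 components, and leidenalg 0.10.2 at resolution 1 split a graph weighted by shared neighbours (20 per cell). Cluster profiles were joined by average linkage into 2 compartments, a step chosen after seeing the data in place of marker classes. The fixed marker and pathway lists could not be matched to identifiers and were not used, and named genes are Nppa, Nppb and the gene next most like each. Ratios are of sums over totals, with exact intervals given their sum, set beside all genes that averaged 20 CPM or more. On simulated counts, intervals held the true ratio for 94.7% of 4122 genes for TBX18 over GFP at day 3. The share was 95.9% for TBX18 over GFP at day 14 and 95.2% for A83-01 over TBX18. These counts were drawn with counting error only, without spread between cells or cultures, so they check the computation alone. Grouping by number of virus UMIs was added after the data were seen. Depth matching drew equal numbers of cells from each of 10 bins of depth. The column count left unused for lack of a sample is 0.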

Additional observations from a re-analysis of the deposited data

Results flagged for a closer look

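Several ratios had opposite directions under the same contrast at 2 days or with 2 viruses. None of these differences was tested, since each group has 1 library. TBX18 over GFP had a log2 ratio for Nppa of 0.47 at day 3 and -1.41 at day 14 in compartment 1, and of 0.41 and -1.33 in compartment 2, where the day 3 value was -0.017 (-0.051 to 0.017) in the day 14 range of genes and UMIs, so that its direction is not settled. For Nppb it was 2.09 at day 3 and -0.5 at day 14 in compartment 1, and 1.53 and -0.52 in compartment 2. Day 14 over day 3 had a log2 ratio for Nppb of 1.26 with GFP and -1.33 with TBX18 in compartment 1, and of 1.63 and -0.43 in compartment 2.

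The comparisons of the report do not use barcodes under 500 genes, which entered only the alternative with no minimum of genes, and both genes were present in them above the limit that a count of 0 allows. Of the day 3 GFP barcodes, 731 were of this kind and held 435 CPM of Nppa and 23.4 CPM of Nppb, where 3 counts correspond to 0.575 CPM. Of the day 3 TBX18 barcodes, 292 were of this kind and held 450 CPM of Nppa and 50.3 CPM of Nppb, where 3 counts correspond to 1.01 CPM. Barcodes with at least 500 genes were at 12749 and 532 CPM with GFP, and at 15925 and 2047 CPM with TBX18.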

How the results depend on the processing

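Of 380 log2 ratios under alternatives, 366 kept their direction and their side of the 2-fold mark. Nppb with A83-01 over TBX18 in compartment 1, at 1.00, lies at the mark and passed it with no minimum of genes (1.06), the day 14 range of genes and UMIs (1.004), no doublet removal (1.10), resolution 2 (1.004), median-of-ratios scaling (1.37), the mean of per-cell CPM (1.11) and without the top 1% of cells (1.06). Nppb at day 14 over day 3 with TBX18 in compartment 2 was -1.10 without doublet removal. Nppa in cells with 2 to 4 over 0 virus UMIs with A83-01 was -1.02 by the mean of per-cell CPM. Nppa at day 14 over day 3 with GFP in compartment 2 was -0.998 without the tenth of cells nearest the other compartment, an alternative chosen after seeing the data. Directions turned for Nppa with TBX18 over GFP at day 3 in compartment 2 (-0.017 in the day 14 range) and for Nppa in cells with 10 or more over 0 EGFP UMIs at day 14 (-0.086 without the top 1% of cells). Nppa in cells with over without EGFP at day 3, whose interval included 0, was -0.021 and -0.0069 under the same alternatives. The cause was not tested. Without doublet removal, levels in compartment 2 at day 3 were up to 1.68-fold higher (319 CPM of Nppa with GFP, 393 CPM of Nppa and 54.7 CPM of Nppb with TBX18). No other of the 140 levels in CPM compared moved by over 1.5 times. Of 262 levels, shares and ranks, 130 moved beyond their counting interval. Shares of cells with a UMI depend on the depth thinned to: at 2000 UMIs, Nppa in compartment 2 with GFP at day 3 was found in 27.8% in place of 54.2% and Nppb in 1.85% in place of 4.19%, and Nppa in compartment 1 in 94.0%, 97.0%, 77.7%, 33.6% and 84.3% for GFP and TBX18 at day 3 and GFP, TBX18 and A83-01 at day 14. Classes from each cell's own markers, removal of cells with markers of the other class, a CPM base without mitochondrial genes and counts of pathway lists were not run, since identifiers have no names here. No paired analysis was possible because each group has 1 library.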
